A study of Homo sapiens with 60 samples.

Results

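The comparison described here set HT29 cells given the ethanol extract of Atractylodis Rhizoma at 500 µg/mL against HT29 cells given the same extract at 20 µg/mL. Its members are 6 of the 60 RNA sequencing libraries of the study, 3 per dose, and they were chosen by the extract and dose on their labels. HT29 is a human colorectal adenocarcinoma line, grown here in DMEM with serum, and every library was made from cells exposed for 24 h. Atractylodis Rhizoma is the dried rhizome of Atractylodes, a herb of Korean and Chinese medicine, extracted here with aqueous ethanol under ultrasound. No vehicle library enters the comparison, so it asks what depends on dose. The labels give 500 µg/mL as the top dose unless an extract's IC20 is lower. By that rule the IC20 of Atractylodes would not be below 500 µg/mL, but the labels give no measured dose at which it slows or kills these cells. Other groups used below are Atractylodes at 100 µg/mL and the ethanol extracts of Poria Cocos and Panax Ginseng at 500 and 20 µg/mL, with 3 libraries each. Atractylodes and Poria carry set number 9 in the sample names and Ginseng set number 10.

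The cell's sterol supply is kept by opposing transcription factors. SREBP2 switches on cholesterol synthesis and uptake when sterols are low, and the liver X receptors (LXR), which bind oxidised sterols, switch on genes that export cholesterol and remodel membrane lipids. NRF2, which its partner KEAP1 holds in check until electrophiles or oxidants modify KEAP1, drives genes for glutathione, NADPH and the reduction of carbonyls and quinones. In the gut lining and the liver these programs meet dietary sterols and plant chemicals.

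The 6 libraries held 25.38 M to 27.84 M counts, within the 19.31 M to 29.62 M of the series. Mitochondrially encoded genes took 5.86%, 6.21% and 6.74% of counts at 500 µg/mL, against 5.52%, 7.28% and 5.45% at 20 µg/mL, so the groups overlapped (exact permutation test, two-sided, p = 0.8, where 3 against 3 cannot go below 0.1). Of 12 colon epithelium markers 12 were expressed, with a summed level of 12741.0 to 12971.0 CPM at 500 µg/mL and 13289.4 to 13959.9 CPM at 20 µg/mL. Of these markers 1 rose and 1 fell (16.7% called, beside 3.95% of all genes). An unadjusted p below 0.05 was found for 6, and 9 differences were below 0. Most markers of fibroblasts (7 of 9), leukocytes (7 of 10), endothelium (4 of 7) and hepatocytes (4 of 7) were too low to be tested, and none of those tested was called by edgeR or DESeq2, with 1 fibroblast and 1 hepatocyte gene at an unadjusted p below 0.05. The summed level of the leukocyte markers, 1493.2 to 1589.0 CPM at 500 µg/mL and 1388.7 to 1490.5 CPM at 20 µg/mL, was almost all lysozyme (LYZ). That of the hepatocyte markers, 321.9 to 355.6 CPM and 341.5 to 398.3 CPM in the same order of doses, was almost all SERPINA1. No count in any of the 6 libraries came from COL1A2 and PDGFRA (fibroblasts), CD3E, CD2, MS4A1 and FCGR3A (leukocytes) or KDR and EMCN (endothelium). Fibroblast markers summed to 1.52 to 2.08 CPM at 500 µg/mL and 1.81 to 2.71 CPM at 20 µg/mL, and endothelial markers to 2.48 to 3.39 and 2.47 to 3.33 CPM. CPM are counts per M of a library's scaled total over the tested genes, and they compare a gene between samples, not one gene with another.

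At 500 µg/mL cells held more mRNA of 6 of 12 tested LXR genes, among them the cholesterol exporters ABCG1 and ABCA1, less mRNA of 21 of 33 tested cholesterol genes, and more mRNA of 29 of 41 tested NRF2 targets, than at 20 µg/mL. Of 16445 tested genes 649 were called (3.95%), 318 of them higher (1.93%) and 331 lower (2.01%) at 500 µg/mL. A gene is called, and is said to have risen or fallen at 500 µg/mL, at an adjusted p below 0.05. At an unadjusted p below 0.05 there were 2496 genes. Most changes were small, with a median size of 0.26 on the log2 scale among called genes, and 35 rises and 48 falls went beyond 1.5-fold. The libraries of the groups did not overlap for 636 of the 649 called genes, against 3443 of all 16445 (20.9%). The median log2 fold change of all tested genes was -0.004. Without high dose library 1 the count was 377, without high dose library 3 it was 424 and without low dose library 3 it was 400. The labels do not say that replicate libraries came from separate cultures, so p-values measure a spread between libraries. That spread was shared over all 57 libraries of the fit, not taken from these 6 alone. With only these 6 in the fit 341 genes were called. In bulk RNA, fewer cells of a kind and less RNA per cell cannot be told apart.

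**Figure D1:**
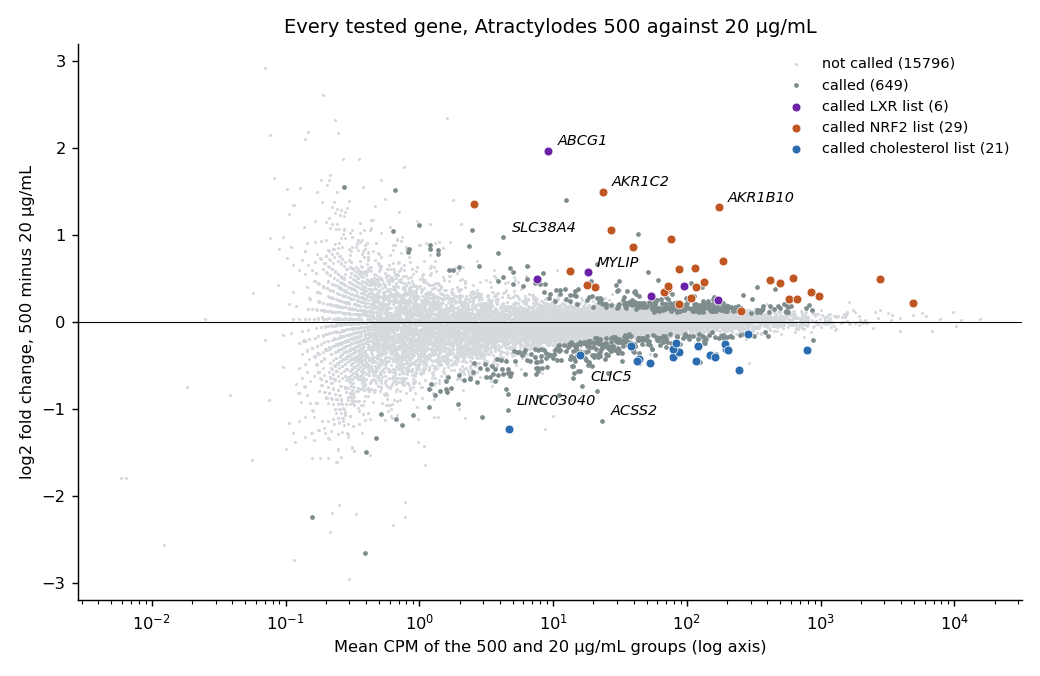
Each point is 1 of 16445 tested genes, by its mean CPM over the 500 and 20 µg/mL groups (x, log axis) and its log2 fold change, 500 minus 20 µg/mL (y); dark grey points were called, and colours mark called members of 3 lists. The called LXR and NRF2 members lie above 0 and the called cholesterol members below it; 33 genes, none of them called, lie outside the y axis.

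Among LXR targets the change was largest for ABCG1, a transporter that moves cholesterol out of cells onto lipoproteins. ABCG1 (ENSG00000160179, GRCh38 chr21:42199689-42297244) had 16, 14.1 and 14.1 CPM at 500 µg/mL, against 3.80, 3.98 and 3.48 CPM at 20 µg/mL. Every high dose library was more than 3-fold above every low dose library, and the log2 fold change of 1.97 ± 0.12 (SE, adjusted p = 1.6e-17) was the largest rise in the list. At 100 µg/mL ABCG1 stood at 5.02, 5.37 and 5.70 CPM, nearer to the low dose. ABCA1, which loads cholesterol onto apolipoprotein A-I, had 8.48, 8.19 and 9.81 CPM at 500 µg/mL, against 6.71, 5.95 and 6.08 CPM at 20 µg/mL. Its rise of 0.50 ± 0.12 (adjusted p = 0.0057) was smaller, and its libraries did not overlap either. MYLIP, a ubiquitin ligase that LXR induces, had 21.3, 21.2 and 22.6 CPM at 500 µg/mL, against 14.6, 14.9 and 14.3 CPM at 20 µg/mL. The rise of MYLIP was 0.57 ± 0.07 (adjusted p = 2e-07), and its 100 µg/mL libraries, at 14.6, 16.3 and 14.6 CPM, stood at or just above the low dose.

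LPCAT3, which puts polyunsaturated fatty acids into phospholipids, rose by 0.41 ± 0.07 (adjusted p = 3.1e-05), with 109.8, 101.1 and 112.9 CPM at 500 µg/mL, against 84.9, 91.9 and 66.4 CPM at 20 µg/mL. SREBF1, which encodes the lipogenic factor SREBP1, rose by 0.25 ± 0.05, and NR1H3, which encodes LXR alpha itself, by 0.30 ± 0.06. In all, 6 of 12 tested LXR genes rose (50.0%, beside 1.93% of all genes) and 0 fell. The list median was 0.21, beside -0.004 for all genes. The rest gave no call. SCD, the stearoyl-CoA desaturase, changed by 0.02 ± 0.04, NR1H2, which encodes LXR beta, by -0.01 ± 0.05, and SMPDL3A by -0.14 ± 0.14. The lipoprotein genes APOE, APOC1 and PLTP were at or below 1.71 CPM in all 6 libraries and had differences of -0.25 ± 0.44, -0.02 ± 0.26 and 0.17 ± 0.22. ABCG5, ABCG8 and LPL did not pass the filter on low counts.

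**Figure D2:**
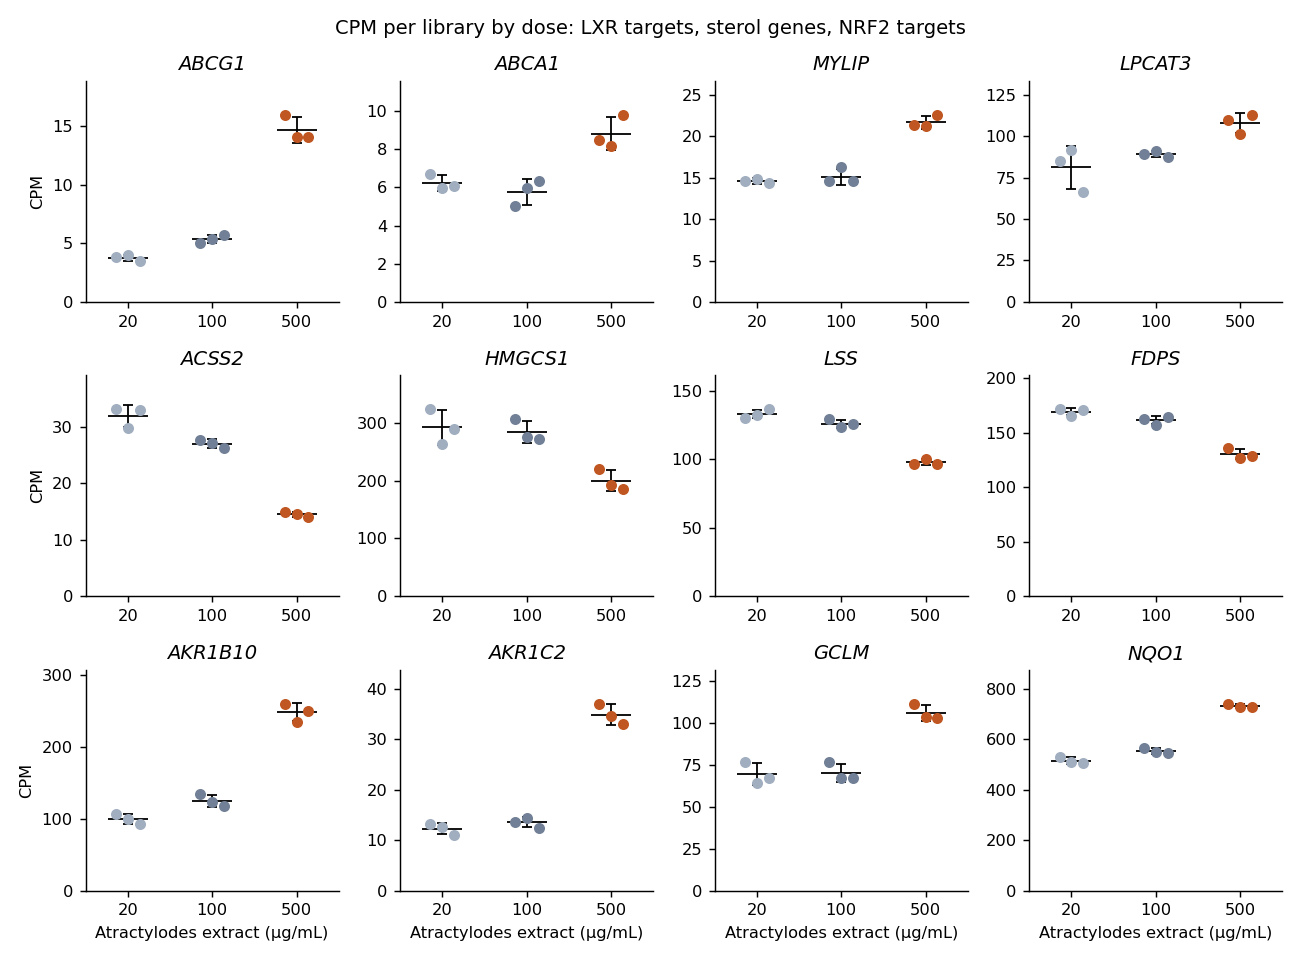
CPM (y, from 0) in each of 3 libraries per dose of Atractylodes extract (x, µg/mL) for 12 genes, with the mean as a bar and the SD as whiskers; the rows hold LXR targets, sterol and acetate genes, and NRF2 targets. In all 12 panels the 500 µg/mL points do not overlap the 20 µg/mL points, and the 100 µg/mL mean lies nearer to the 20 µg/mL mean.

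Genes of cholesterol synthesis and its regulation moved the other way. Of 33 tested genes 21 fell (63.6%, beside 2.01% of all genes) and 0 rose. The median was -0.31, and 31 of the 33 differences were below 0. The fall ran through the mevalonate pathway, where 7 of 9 genes were called, and the later sterol steps, where 10 of 12 were. Among regulators and uptake genes it was 3 of 7 and 1 of 5. The promoters of HMGCS1, FDPS and LSS are shown because these called genes stand for an early step, the middle and the ring closure of the pathway. That of SREBF2, a called regulator, is shown for its match to TCACNCCAC. The windows shown are the 250 bases before the gene's start in RefSeq on GRCh38.p14, at chr5:43313413-43313662 (minus strand), chr1:155308616-155308865 (plus strand), chr21:46228775-46229024 (minus strand) and chr22:41832855-41833104 (plus strand). Capitals mark CCAAT, the box that the factor NF-Y reads, on either strand (ATTGG on the other) in the first 3, and TCACNCCAC, a core of the sterol regulatory element, in SREBF2. The SREBF2 window also holds 1 CCAAT match, left in small letters.
HMGCS1: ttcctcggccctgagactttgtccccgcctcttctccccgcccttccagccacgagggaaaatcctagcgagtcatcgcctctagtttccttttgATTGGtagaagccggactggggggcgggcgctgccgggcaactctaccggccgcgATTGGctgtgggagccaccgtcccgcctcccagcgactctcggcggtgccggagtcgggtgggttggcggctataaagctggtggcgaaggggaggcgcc
FDPS: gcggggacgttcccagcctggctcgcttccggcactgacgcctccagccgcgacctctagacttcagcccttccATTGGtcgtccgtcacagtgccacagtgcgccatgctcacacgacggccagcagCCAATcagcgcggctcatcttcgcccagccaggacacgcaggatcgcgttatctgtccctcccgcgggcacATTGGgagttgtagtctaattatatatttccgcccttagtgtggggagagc
LSS: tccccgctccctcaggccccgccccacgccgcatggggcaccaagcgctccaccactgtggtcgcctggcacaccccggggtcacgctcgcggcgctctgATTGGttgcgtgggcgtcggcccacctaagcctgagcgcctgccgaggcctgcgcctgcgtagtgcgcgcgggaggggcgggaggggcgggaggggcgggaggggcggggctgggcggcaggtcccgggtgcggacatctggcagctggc
SREBF2: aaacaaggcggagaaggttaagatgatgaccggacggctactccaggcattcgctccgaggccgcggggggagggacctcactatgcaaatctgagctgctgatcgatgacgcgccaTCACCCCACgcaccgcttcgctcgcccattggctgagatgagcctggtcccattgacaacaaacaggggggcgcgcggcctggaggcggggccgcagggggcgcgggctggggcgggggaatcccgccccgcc
Of the 16 called cholesterol genes with a promoter in the table, 14 (87.5%) held CCAAT on either strand, against 32.0% of all 35116 promoters. Those promoters were not limited to tested genes. CCAAT also stood in 10 of 21 called NRF2 genes with a promoter (47.6%) and in 2 of 5 called LXR genes (40.0%). Its share among cholesterol genes that were not called was not taken. TCACNCCAC stood in 1 of the 16 (6.25%), SREBF2, against 0.883% of all promoters. A match of letters is a description of the window, not a binding site.

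Among the regulators INSIG1, which holds the SREBP escort protein in the endoplasmic reticulum, fell by 0.41 on the log2 scale, with 149.1, 133.6 and 134.2 CPM at 500 µg/mL, against 195.7, 174.3 and 182.0 CPM at 20 µg/mL. SREBF2, which encodes SREBP2, changed by -0.13 ± 0.04 (adjusted p = 0.016), with 272.7, 276.3 and 265.4 CPM at 500 µg/mL, against 288.4, 310.9 and 294.9 CPM at 20 µg/mL. The SREBP escort SCAP, its proteases MBTPS1 and MBTPS2 and INSIG2 had differences of -0.01, 0.04, -0.01 and 0.00 and were not called.

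HMGCS1 acts at an early step of the mevalonate pathway. It had 220.0, 192.7 and 185.7 CPM at 500 µg/mL, against 323.5, 263.5 and 289.1 CPM at 20 µg/mL, a log2 fold change of -0.55 ± 0.10 (adjusted p = 0.00016). Every high dose library lay below every low dose library. MVD (-0.47), MVK (-0.43), FDPS (-0.38), IDI1 (-0.37) and ACAT2 (-0.35) also fell, and PMVK and GGPS1, at -0.01 and -0.11, were not called. GGPS1 makes the precursor of prenylation rather than sterol.

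LSS, the cyclase that closes the sterol ring, fell as well. Its 96.3, 100.6 and 96.8 CPM at 500 µg/mL all lay below the 130.4, 132.5 and 136.7 CPM at 20 µg/mL, and the log2 fold change was -0.44 ± 0.03 (adjusted p = 9.9e-14). Falls in the same branch came in TM7SF2 (-0.45), MSMO1 (-0.40), HSD17B7 (-0.38), SQLE (-0.32), CYP51A1 (-0.31), EBP (-0.31), SC5D (-0.27), FDFT1 (-0.25) and NSDHL (-0.24). DHCR7, a reductase of the last steps, had -0.15 ± 0.06 and was not called. Of the uptake genes NPC2, which hands cholesterol out of the lysosome, fell by 0.28, while NPC1 changed by -0.03 ± 0.05 and STARD4 by -0.24 ± 0.10 with no call. NPC1L1, below 1 CPM, had -1.18 ± 0.35 (adjusted p = 0.064).

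Fatty acid synthesis did not follow. Of 18 tested genes 2 rose and 3 fell (27.8% called, beside 3.95% of all genes), and the list median was 0.02. The largest change was the fall of ACSS2, which turns acetate into acetyl-CoA in the cytosol and nucleus. ACSS2 (ENSG00000131069, chr20:34872146-34927962) had 15.0, 14.6 and 14.0 CPM at 500 µg/mL, against 33.1, 29.7 and 33.0 CPM at 20 µg/mL. The log2 fold change was -1.14 ± 0.06 (adjusted p = 9.4e-19), and the 100 µg/mL libraries, at 27.7, 27.1 and 26.2 CPM, fell between. ACLY, the citrate lyase, changed by -0.11 ± 0.03 (adjusted p = 0.033, its libraries overlapping), and the citrate carrier SLC25A1 by -0.17 ± 0.05 (adjusted p = 0.05 when rounded, and called, but lost under 10 of 15 alternatives). FASN, ACACA and ELOVL6 had 0.01 ± 0.05, 0.09 ± 0.03 and 0.07 ± 0.04 and were not called. The rises were ME1, which makes NADPH and is an NRF2 target too, and ACSL3 (0.16), an acyl-CoA synthetase of lipid droplets.

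Of 17 tested genes linked to the PPAR receptors, which answer to fatty acids, 5 rose and 0 fell (median 0.12). That is 29.4% called, beside 3.95% of all genes. All of the 5 belong to fatty acid oxidation or its control. PDK4, which keeps pyruvate from oxidation, rose by 0.45 ± 0.10, CYP4F12 by 0.44 ± 0.12 (a call lost under 8 of 15 alternatives), the carnitine acyltransferase CPT1A by 0.30 ± 0.05 and ACADVL by 0.18 ± 0.04. The lipid droplet and fatty acid binding genes of the list (PLIN2, PLIN4, HILPDA, FABP1 and CIDEC) gave no call, with differences of 0.26, 0.12, 0.00, 0.40 and 0.12.

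NRF2 targets formed the broadest rise. Of 41 tested genes 29 rose (70.7%, beside 1.93% of all genes) and 0 fell. The median was 0.39, and all 41 differences were above 0. The promoters of GCLM, TXNRD1 and ME1 are shown because these called genes of glutathione, thioredoxin and NADPH supply hold TGACNNNGC, the core of the antioxidant response element that NRF2 binds, in the 250 bases before their start in RefSeq. They lie at chr1:93909431-93909680 (minus strand), chr12:104215529-104215778 (plus strand) and chr6:83431052-83431301 (minus strand) on GRCh38.p14, and the motif is in capitals, in GCLM on the other strand.
GCLM: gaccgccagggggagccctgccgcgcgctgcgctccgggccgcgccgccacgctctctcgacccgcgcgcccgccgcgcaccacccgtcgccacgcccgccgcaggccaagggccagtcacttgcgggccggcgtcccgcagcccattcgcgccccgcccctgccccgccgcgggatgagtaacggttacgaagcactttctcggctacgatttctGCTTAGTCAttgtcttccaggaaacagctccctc
TXNRD1: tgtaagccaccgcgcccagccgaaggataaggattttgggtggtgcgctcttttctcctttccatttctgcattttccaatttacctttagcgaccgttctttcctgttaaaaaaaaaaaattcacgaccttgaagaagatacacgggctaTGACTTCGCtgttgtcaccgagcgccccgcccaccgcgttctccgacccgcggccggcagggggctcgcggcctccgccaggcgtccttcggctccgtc
ME1: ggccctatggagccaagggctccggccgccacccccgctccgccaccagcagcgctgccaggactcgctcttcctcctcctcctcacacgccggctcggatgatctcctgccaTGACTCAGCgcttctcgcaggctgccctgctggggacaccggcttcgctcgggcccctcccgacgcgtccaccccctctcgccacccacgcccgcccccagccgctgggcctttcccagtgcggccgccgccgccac
The motif stood in 6 of the 21 called NRF2 genes with a promoter in the table (28.6%), against 10.9% of all promoters. Besides GCLM, TXNRD1 and ME1 the matches were in GPX2, PGD and FECH. The set of all promoters was not limited to tested genes. The share of the motif among NRF2 genes that were not called was not taken, and a match of letters is not a binding site.

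The aldo-keto reductases AKR1B10 and AKR1C1 to AKR1C3 all rose by 0.96 or more on the log2 scale. These enzymes reduce aldehydes, ketones and steroids. AKR1B10 (chr7:134527592-134541408) had 260.7, 235.6 and 250.4 CPM at 500 µg/mL, against 106.3, 99.8 and 92.5 CPM at 20 µg/mL, a log2 fold change of 1.32 ± 0.06 (adjusted p = 2.3e-23). AKR1C2 had 37.1, 34.7 and 33.0 CPM at 500 µg/mL, against 13.2, 12.7 and 11.0 CPM at 20 µg/mL, a change of 1.5 ± 0.07. No library of one dose came near those of the other in either gene. AKR1C1 rose by 1.06 ± 0.06 and AKR1C3 by 0.96 ± 0.08. The AKR1C genes are close copies, so their shares of the counts are uncertain. AKR1B1 was at or below 0.418 CPM in all 6 libraries, and its difference of 1.63 ± 0.53 was not called.

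Of the aldehyde and quinone enzymes 6 of 7 rose. ALDH3A1 had 50.0, 51.9 and 51.1 CPM at 500 µg/mL, against 27.1, 27.8 and 29.5 CPM at 20 µg/mL (0.86 ± 0.05), and NQO1, the quinone reductase, rose by 0.51 ± 0.04. EPHX1, PTGR1, ALDH1A1 and UGDH rose by 0.46, 0.35, 0.29 and 0.28, while CBR1 had 0.14 ± 0.06 with no call. In glutathione handling 7 of 9 rose. The cystine importer SLC7A11 had 233.1, 233.3 and 221.7 CPM at 500 µg/mL, against 145.6, 134.9 and 141.0 CPM at 20 µg/mL (0.71 ± 0.07). Both subunits of the enzyme that starts glutathione synthesis rose, GCLC by 0.62 ± 0.07 and GCLM by 0.61 ± 0.06. Glutathione reductase (GSR, 0.39), GPX2 (0.34) and the conjugate pumps ABCC2 (1.36) and ABCC3 (0.27) rose too, but ABCC2 was low, at 3.37 to 4.34 CPM at 500 µg/mL and 1.15 to 1.92 CPM at 20 µg/mL. GSTA4 and MGST1 had 0.08 and 0.18 and were not called.

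TXNRD1, which recycles thioredoxin, rose by 0.49 ± 0.07 and SRXN1 by 0.41 ± 0.06, while TXN and PRDX1, both at 0.15, gave no call. In the pentose phosphate branch and beside it, 4 of 5 NADPH genes rose, among them ME1 (0.40 ± 0.04), TKT (0.27) and PGD (0.13). ME1 had 132.9, 132.7 and 131.9 CPM at 500 µg/mL, against 103.7, 95.1 and 101.7 CPM at 20 µg/mL, with no overlap. Of the heme and iron genes HMOX1, heme oxygenase, rose by 0.59 ± 0.09, the ferritin chains FTL and FTH1 by 0.50 ± 0.09 and 0.22 ± 0.04, and FECH by 0.41 ± 0.06. For FTL low dose library 3 stood lowest, at 1841.1 CPM beside 2431.9 and 2590.1 CPM in the other low dose libraries, against 3315.2, 2926.7 and 3456.0 CPM at 500 µg/mL. Among regulators MAFG and OSGIN1 rose by 0.21 and 0.43, and the mRNAs of NRF2 itself (NFE2L2, 0.03 ± 0.04), KEAP1 (0.14 ± 0.05) and BACH1 (0.01 ± 0.05) were not called.

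Neighbouring detoxification lists moved in part. Of 9 tested AhR targets 4 rose (44.4%, beside 3.95% of all genes called), but ALDH3A1 and NQO1 among them are NRF2 targets as well. The others were UGT1A6 (0.48 ± 0.06) and TIPARP (0.19 ± 0.05). CYP1A1, the textbook AhR target, was at 1.64, 1.12 and 1.19 CPM at 500 µg/mL, against 0.462, 0.772 and 0.535 CPM at 20 µg/mL. The groups did not overlap, yet the difference of 1.16 ± 0.43 was not called (adjusted p = 0.14), and CYP1B1 had 0.04 ± 0.08. In the drug metabolism list 6 of 20 rose and 0 fell (median 0.07). ABCG2, an efflux pump, had 120.0, 124.6 and 125.5 CPM at 500 µg/mL, against 84.8, 92.8 and 92.5 CPM at 20 µg/mL (0.46 ± 0.05), and CYP4F3, ABCC1 and the glucuronosyltransferases UGT1A1, UGT1A8 and UGT1A10 were the other rises. The UGT1A genes share exons, so counts among them are uncertain.

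Of 39 genes of the ATF4 program 6 rose (15.4%, beside 3.95% of all genes called), and 5 of them are amino acid transporters or their partner (SLC7A11, SLC7A5, SLC3A2, SLC1A5 and SLC7A1), the other being ASNS (0.26 ± 0.05). None of the 12 factors of the program was called by edgeR or by DESeq2, but 5 had an unadjusted p below 0.05. Their median was -0.10, with 7 differences below 0 and 5 above. Of 20 endoplasmic reticulum stress genes only HSPA5, the main chaperone of that compartment, rose (0.18 ± 0.04), which makes 5.0% called. None of 11 heat shock genes, 6 metal response genes, 15 apoptosis genes or 22 NF-kB genes was called by edgeR or by DESeq2. At an unadjusted p below 0.05 there were 4, 0, 1 and 1 of them. All 31 tested interferon genes had differences below 0, and 4 of them fell (12.9%, beside 3.95% of all genes called), with a median of -0.20. IFIT1 had 2.81, 3.34 and 2.31 CPM at 500 µg/mL, against 4.37, 4.48 and 4.74 CPM at 20 µg/mL (-0.68 ± 0.17, adjusted p = 0.0083), IFIT2 changed by -0.51 ± 0.14 and IRF9 by -0.42 ± 0.12. The fourth, RSAD2, never passed 0.0769 CPM at 500 µg/mL or 0.497 CPM at 20 µg/mL, too few reads for a fold. Interferon calls depended on single libraries, with 0 left without high dose library 3 and 1 without high dose library 2.

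Some genes of the colon epithelium were called, in either direction. MUC13 and MUC20, mucins of the cell membrane, fell by 0.46 and 0.31 on the log2 scale, and of 20 secretory lineage genes the factor HES6 (-0.56 ± 0.10) and REG4 (-0.28 ± 0.07) fell. Of 21 enterocyte genes 3 rose and 1 fell. CEACAM5, the carcinoembryonic antigen, had 9.74, 10.0 and 10.5 CPM at 500 µg/mL, against 6.64, 8.07 and 5.81 CPM at 20 µg/mL (0.56 ± 0.11), CEACAM6 rose by 0.36 ± 0.06 and the factor KLF5 by 0.16 ± 0.04, while the brush border protein VIL1 changed by -0.19 ± 0.04. Of 21 FOXO targets KLHL24 (-0.41), CCNG2 (-0.36), FBXO32 (-0.35) and TP53INP2 (-0.42) fell and PDK4 rose. Of 16 YAP and TEAD genes TEAD1 rose by 0.31 ± 0.05, and VGLL1 (-1.09 ± 0.15) and VGLL4 (-0.18 ± 0.05), which bind TEAD factors, fell. The call of VGLL4 was lost under 11 of 15 alternatives, DESeq2 among them, and that of VGLL1 under 0 of 15. The called shares were 33.3% of 6 membrane mucins and 10.0% of the secretory list, beside 3.95% of all genes. They were 23.8% of the FOXO list and 18.8% of the YAP and TEAD list. The enterocyte list, with 4 of 21 called, was above the share of all genes too.

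In ribosome biogenesis 6 of 32 genes rose (18.8%, beside 3.95% of all genes called), none fell and all 32 differences were above 0, but the median was only 0.10 and the called genes ran from 0.12 (NOLC1) to 0.20 (POLR1G). Of these 6 calls RRP12 was lost under 11 of 15 alternatives, FBL under 9 and NOLC1 under 8. In DNA replication 3 of 40 rose (MCM4, CDC6 and RRM2, by 0.14, 0.16 and 0.11) and in mitosis 1 of 29 (PRC1, 0.13), shares of 7.5% and 3.45% beside 3.95% of all genes. None of 30 ribosomal protein genes, 30 nuclear genes of oxidative phosphorylation or 13 mitochondrially encoded genes was called by edgeR or by DESeq2, nor had any an unadjusted p below 0.05. Of 13 MAPK feedback genes FOSL1 rose (0.43), and of 10 EGFR family genes ERRFI1 rose (0.23). Of 17 Wnt and stem cell genes SP5 (-0.33) and PROM1 (-0.19) fell, and of 17 p53 targets SESN1 (-0.22) and BTG2 (-0.25) fell. The called shares of these lists, in that order, were 7.69%, 10.0%, 11.8% and 11.8%, beside 3.95% of all genes. Of 22 autophagy and lysosome genes (13.6% called) GLA rose (0.22), and NEU1 and TP53INP2 fell by 0.31 and 0.42 on the log2 scale. None of 11 MHC class I genes (0 at an unadjusted p below 0.05, 0 by DESeq2) and none of 10 immediate early genes (3 at an unadjusted p below 0.05, 1 by DESeq2) was called by edgeR. Among 30 genes of glycolysis and hypoxia GPI, HK2, PFKP and PFKFB3 rose, by 0.16 to 0.25, and ALDOC fell by 0.42, which makes 16.7% called. The calls of PFKFB3 and PRC1 were each lost under 8 of 15 alternatives.

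**Figure D3:**
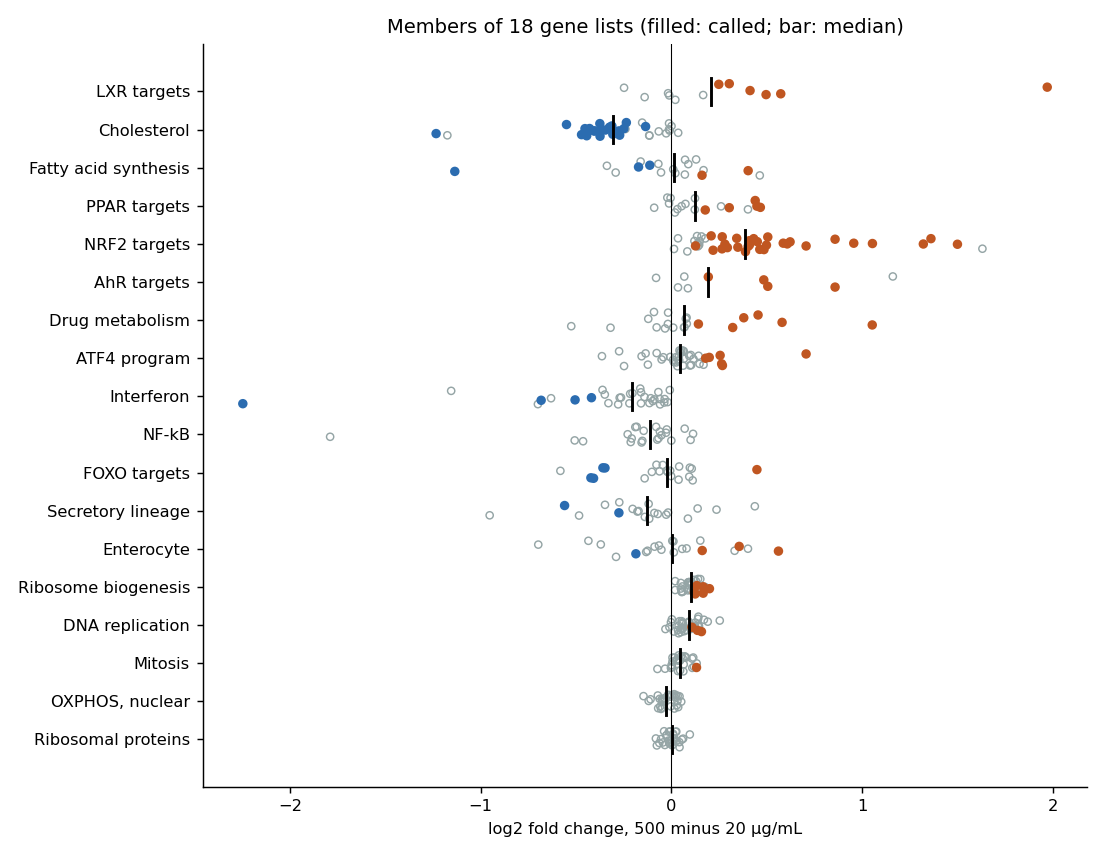
Each point is a tested gene of 1 of 18 lists (rows) at its log2 fold change, 500 minus 20 µg/mL (x); filled points were called and black bars are list medians. List medians of 0.39 for NRF2 targets and -0.31 for cholesterol genes stand apart from 0, while ribosomal protein genes lie within -0.08 and 0.10.

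Outside the lists, the genes given are those with the largest changes among called genes with a symbol, at least 5 CPM in the higher group and libraries that did not overlap. The amino acid transporter SLC38A4 had 5.02, 5.55 and 6.31 CPM at 500 µg/mL, against 2.63, 2.82 and 3.13 CPM at 20 µg/mL (0.98 ± 0.16, adjusted p = 3.6e-05). GPAT3, which starts glycerolipid synthesis, rose by 0.67 ± 0.09 and the channel protein PANX2 by 0.62 ± 0.12. BOLA2 had 17.8, 18 and 18.4 CPM at 500 µg/mL, but 1.88, 15.3 and 3.55 CPM at 20 µg/mL. Its rise of 1.41 ± 0.43 is uncertain, because BOLA2B is a near-identical copy that may share its reads and low dose library 2 stood near the high dose. The call was lost under 9 of 15 alternatives.

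Among falls chosen in the same way, LINC03040, a long noncoding RNA, was the largest outside the lists, with 2.89, 3.10 and 3.11 CPM at 500 µg/mL, against 6.00, 6.25 and 6.15 CPM at 20 µg/mL (-1.01 ± 0.12, adjusted p = 1.6e-08). The proline and imino acid transporter SLC6A20 had 5.48, 5.62 and 5.77 CPM at 500 µg/mL, against 10.6, 10.0 and 10.1 CPM at 20 µg/mL (-0.86 ± 0.09). CLIC5, a chloride intracellular channel protein, had 12.3, 12 and 12.6 CPM at 500 µg/mL, against 22.1, 19.1 and 20.2 CPM at 20 µg/mL (-0.74 ± 0.06, adjusted p = 1.2e-12). That the groups did not overlap in these genes follows from how they were chosen. The others were RNF144B (-0.84), the urea transporter SLC14A1 (-0.83), the proton pump subunit ATP6V1B1 (-0.80), the RAS relative MRAS (-0.77), the NADPH oxidase NOX1 (-0.65), MEGF6 (-0.62) and the antisense RNA IGFL2-AS1 (-0.60). The libraries are strand-specific, but the sources used here do not say how counting used strand, so the level of the antisense RNA is uncertain.

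The 100 µg/mL libraries lay between the other doses for most of these genes, and closer to 20 than to 500 µg/mL. The mean at 100 µg/mL was between the means at 20 and 500 µg/mL for 593 of the 649 called genes. The median gene had gone 0.31 of the log2 distance between 20 and 500 µg/mL. The median was 0.18 for the 29 called NRF2 genes, 0.17 for the 21 called cholesterol genes, 0.19 for the 6 called LXR genes and 0.51 for the 6 called ribosome biogenesis genes. These shares describe genes chosen for their difference between the end doses, and no test was made at 100 µg/mL.

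To see which changes differed from those of other extracts, the effect of dose (500 against 20 µg/mL) was set against that of Poria, from the same set, and of Ginseng, from another set, with no library shared. The dose effect of Poria by itself called 306 genes (1.86%), 168 higher (1.02%) and 138 lower (0.839%) at 500 µg/mL, and that of Ginseng 415 genes (2.52%), 212 higher (1.29%) and 203 lower (1.23%). The Atractylodes dose effect differed from that of Poria for 26 genes (0.158%), 11 above (0.0669%) and 15 below (0.0912%). It differed from that of Ginseng for 7 genes (0.0426%), 1 above (0.00608%) and 6 below (0.0365%). Leaving out 1 library in turn gave 13 to 23 genes against Poria and 3 to 10 against Ginseng. The cholesterol list gave 6 of the 15 genes below Poria and 4 of the 6 below Ginseng, and the LXR list gave 3 of the 11 above Poria and the 1 above Ginseng.

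ABCG1 had 4.86, 4.02 and 3.42 CPM with Poria at 500 µg/mL, against 3.81, 4.77 and 3.72 CPM with Poria at 20 µg/mL, and 3.02, 2.27 and 3.28 CPM with Ginseng at 500 µg/mL, against 4.66, 3.21 and 4.08 CPM with Ginseng at 20 µg/mL. None of these libraries reached the 14.1 CPM of the lowest Atractylodes high dose library. The Atractylodes effect was higher by 1.97 ± 0.18 than that of Poria (adjusted p = 6.1e-10) and by 2.45 ± 0.19 than that of Ginseng (adjusted p = 2.7e-12). ABCA1 and MYLIP were higher than with Poria by 0.74 ± 0.17 and 0.59 ± 0.11, and for Ginseng the differences of 0.53 ± 0.18 and 0.46 ± 0.11 were not called. The call of ABCA1 against Poria was lost under 16 of 20 alternatives.

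For the cholesterol list the medians of the dose effects were -0.31 with Atractylodes, 0.01 with Poria and 0.00 with Ginseng, where 21, 1 and 3 of 33 genes fell. LSS (-0.44 ± 0.05 against Poria, -0.35 ± 0.05 against Ginseng), FDPS (-0.41 and -0.30), ACAT2 (-0.45 and -0.42) and FDFT1 (-0.27 and -0.31) differed from both extracts. Against Ginseng the call was lost under 10 of 20 alternatives for ACAT2, 9 for FDPS, 7 for FDFT1 and 0 for LSS. Against Poria the calls of these genes were not followed under the alternatives, so their stability is not known. IDI1 (-0.50 ± 0.11) differed from Poria, a call lost under 9 of 20 alternatives. HMGCS1, whose spread was wider, had -0.55 ± 0.14 against Poria (adjusted p = 0.11) and -0.49 ± 0.14 against Ginseng (adjusted p = 0.47). ACSS2 fell with all 3 extracts, by 0.22 with Poria and 0.37 with Ginseng, and the Atractylodes effect lay below that of Poria by a log2 difference of -0.91 ± 0.09 (adjusted p = 6.1e-10) and below that of Ginseng by one of -0.76 ± 0.09 (adjusted p = 3.4e-07).

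NRF2 targets rose with all 3 extracts. With Poria 30 and with Ginseng 25 of the 41 genes rose, beside 29 with Atractylodes, and the medians were 0.33, 0.24 and 0.39. None of the 41 was called against either extract by edgeR or by DESeq2, and at an unadjusted p below 0.05 there were 2 against Poria and 12 against Ginseng. AKR1B10 had a difference of 0.19 ± 0.08 from Poria and 0.32 ± 0.08 from Ginseng, and NQO1 of 0.01 ± 0.05 and 0.18 ± 0.05, with no call, which does not show that the extracts act alike. Further genes that differed from Poria were PDK4 (0.63 ± 0.15) above, and LINC03040 (-0.86 ± 0.16), SLC6A20 (-0.58 ± 0.13), ALDOC (-0.49 ± 0.10), CLIC5 (-0.41 ± 0.09) and the lysosomal NEU1 (-0.36 ± 0.06) below. The calls of PDK4 and SLC6A20 were lost under 14 and 16 of 20 alternatives. Those of ALDOC, CLIC5 and NEU1 against Poria were not followed under the alternatives.

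**Figure D4:**
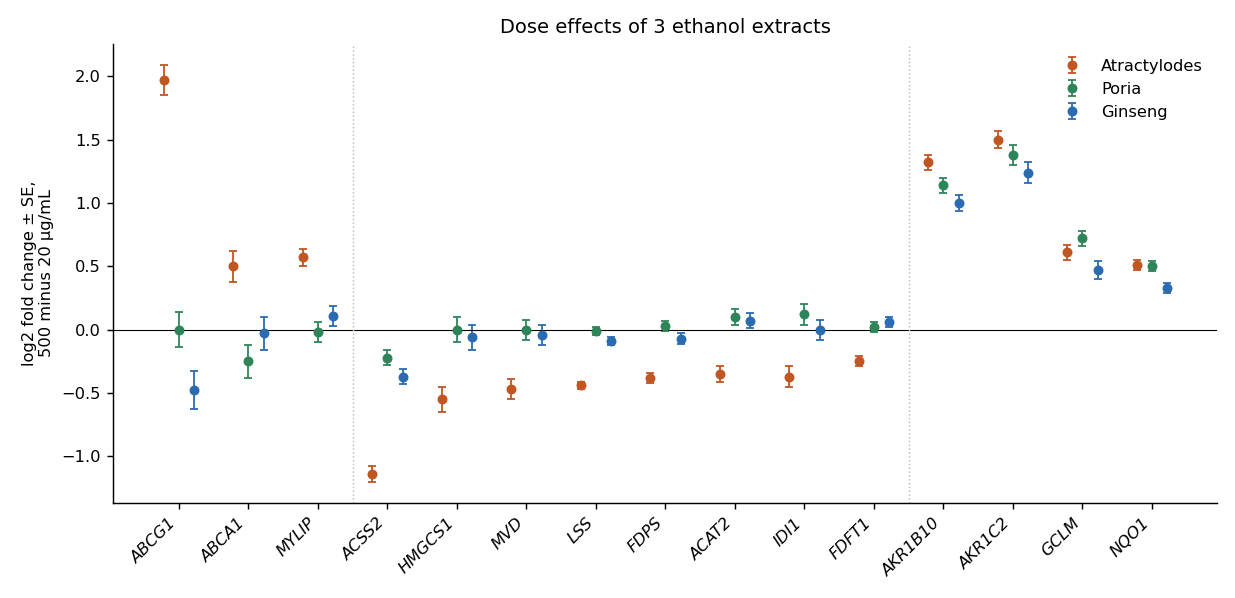
Log2 fold change of 500 minus 20 µg/mL (y) with its SE for 15 genes (x) under Atractylodes, Poria and Ginseng extracts; dotted lines part LXR targets, sterol and acetate genes, and NRF2 targets. ABCG1 stands at 1.97 with Atractylodes and -0.48 with Ginseng, LSS at -0.44 and FDPS at -0.38 are below 0 with Atractylodes and nearer to 0 with the others, and the 4 NRF2 targets are above 0 with all 3 extracts.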

How the data were processed

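Per the labels' protocols, total RNA with a RIN above 7 went into directional mRNA libraries, sequenced from both ends (100 bp) on an MGI instrument. The authors deposited 1 table of expected counts per gene, made with FastQC 0.11.9, Trim Galore 0.6.5, STAR 2.7.3a and RSEM 1.3.3 on hg38 (per the submitters' processing notes). No source used here names the annotation release. Expected counts share reads between near-identical genes by estimate. Of the values of the 6 libraries 8.72% to 9.1% were not whole, and all were rounded. The table's 213 columns of other samples were not used. Symbols matched 56558 of 60675 identifiers, and coordinates came from GENCODE release 29 on GRCh38.

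Labels gave each library its extract and dose. A quasi-likelihood F test of edgeR 4.0.16 (R 4.3.3) with TMM scaling was fitted to 57 libraries in 19 groups, which share 1 estimate of the spread with 38 residual degrees of freedom. Genes with low counts were removed, which left 16445, and p-values were adjusted over them by Benjamini and Hochberg. All adjusted p-values and called genes come from this fit, and ± after a log2 fold change is its standard error. Differences between dose effects of extracts were interaction contrasts of the same fit. The procedure was tested on simulated data with the same spread for every gene and changes of at least 1.5-fold. That test does not bear on the smaller changes that make up most calls here. Alternatives were DESeq2 1.42.0, other scaling, no filter, thinned counts, fewer libraries, a covariate, a replicate block and leaving out each library. Replicates were compared, and none were duplicates within sampling noise. Correlations of log2 CPM were 0.9924 to 0.993 among high dose libraries and 0.9906 to 0.9931 among low dose libraries. Between the doses they were 0.9899 to 0.9929, so low dose libraries differed from each other about as much as from high dose libraries.

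The gene lists and their members were chosen with earlier results of these data known. Named genes were up to 12 rises and 12 falls by size among called genes with a symbol, a mean of at least 5 CPM in the higher group and libraries that do not overlap, up to 6 called genes per list, and up to 5 a side per difference between extracts. All other genes given were chosen after their values were seen. Some genes stand in several lists: ALDH3A1 and NQO1 in NRF2 and AhR, SLC7A11 in NRF2 and ATF4, ME1 in NRF2 and fatty acid synthesis, SCD in LXR and fatty acid synthesis, and PDK4 in PPAR and FOXO. Promoters came from RefSeq on GRCh38.p14, and motifs were sought on both strands. Some list members are not reported here by name, and counts and medians of lists include them.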

Additional observations from a re-analysis of the deposited data

Results flagged for a closer look

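The dose effect of Atractylodes (500 against 20 µg/mL) differed from that of another extract by the interaction test of edgeR for 14 results reported here. Against Poria, the differences in log2 fold change were 1.97 for ABCG1, 0.74 for ABCA1, 0.63 for PDK4 and 0.59 for MYLIP, all higher with Atractylodes. They were -0.91 for ACSS2, -0.86 for LINC03040, -0.58 for SLC6A20 and -0.50 for IDI1, all lower with Atractylodes. Against Ginseng, the difference was 2.45 for ABCG1, and it was -0.76 for ACSS2, -0.42 for ACAT2, -0.35 for LSS, -0.31 for FDFT1 and -0.30 for FDPS. Ginseng was in another set of libraries than Atractylodes, and how that bears on these differences was not tested.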

How the results depend on the processing

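No gene named by the rule changed its direction under any alternative run. With only the 6 libraries of the contrast in the fit 341 genes were called, in place of 649, and leaving out 1 of the 6 libraries in turn gave 377 to 544. The other alternatives without a block gave 512 (counts thinned to the smallest library) to 710 (mitochondrial share as a covariate). Without the filter on low counts 641 were called, 440 of them in common. Over the alternatives the cholesterol list had 16 to 23 called genes and a median of -0.33 to -0.26, the NRF2 list 23 to 30 and 0.35 to 0.41, and the LXR list 3 to 6 and 0.14 to 0.28. Against Poria 26 genes were called, 148 without the filter, and 13 to 23 when 1 library was left out, with 13 without Atractylodes high dose library 2 or Poria low dose library 1, and 16 without Atractylodes low dose library 1 or 2 or Poria high dose library 2 or 3. Against Ginseng 7 were called, 96 without the filter, and 3 to 10 when 1 library was left out, with 3 without Atractylodes high dose library 2 or 3, Ginseng high dose library 1 or Ginseng low dose library 1 or 3, and 4 without Atractylodes low dose library 1 or 3 or Ginseng high dose library 2. The cause was not tested. Of the genes named by the rule, those whose call was lost under 8 or more of 15 alternatives were VGLL4 and RRP12 (11 each), SLC25A1 (10), BOLA2 and FBL (9 each), and NOLC1, PFKFB3, PRC1 and CYP4F12 (8 each). Only differences between extracts named by the rule were followed in this way. Of these, those lost under 9 or more of 20 were ABCA1 and SLC6A20 (16 each), PDK4 (14) and IDI1 (9) against Poria, and ACAT2 (10) and FDPS (9) against Ginseng.

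Same-numbered high and low dose libraries correlated at 0.07, -0.04 and -0.11 in their deviations from the group means. Differently numbered ones correlated at -0.16 to 0.17. No pairing by number was seen between these groups, but 3 libraries per dose cannot exclude it. A replicate block within each set gave 859 genes for the high against the low dose, 50 against Poria and 20 against Ginseng, in place of 649, 26 and 7. In a fit of the contrast's libraries alone the replicate block gave 183, 25 and 17.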
